A study of Mus musculus with 2 samples.

Results

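A set of 10 transcription factor genes of the pharyngeal endoderm and thyroid primordium were followed in the mandibular prominence of mouse embryos, the facial swelling that forms the lower jaw and carries the early tongue. They are Foxa1, Foxa2, Foxe1, Nkx2-1, Nkx2-3, Nkx2-5, Pax1, Pax8, Hhex and Sox2, and were taken by gene symbol, which found all 10 among the 30723 genes measured. The series holds 2 RNA-seq libraries. The mutant library came from 10 pooled embryos of genotype Kif3a f/f ; Wnt1-Cre, in which the gene of the kinesin-2 motor subunit KIF3A, needed to build primary cilia, is floxed and deleted by Cre recombinase under Wnt1 control. The control library came from 10 pooled embryos labelled only as control, and which alleles it carried is not stated there. Both pools are labelled E11.5 (embryonic day) on a mixed CD1 background. The table names, however, place the mutant at day 11 and put the libraries in separate sequencing runs. Genotype therefore cannot be told apart from run or from any difference in stage. Wnt1-Cre acts in neural crest, which forms the mesenchyme of the prominence. Endoderm, surface epithelium, mesoderm, vessels and blood are not neural crest derivatives and lie outside its usual reach.

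With 1 library per group no test between genotypes exists and no p-value is given. Values are FPKM (fragments per kilobase of transcript, scaled also to the number of mapped fragments) summed over the transcripts of a gene. Intervals in parentheses are 95% intervals for counting error only, from approximate fragment numbers, and hold nothing of the variation between embryos or dissections. The libraries held about 24500000 fragments in the mutant and 24700000 in the control. Kif3a, the deleted gene, stood at 5.39 FPKM in the mutant and 11.46 FPKM in the control, a ratio of 0.471 (0.431 to 0.514). The median of the 12259 genes with a mean of at least 1 FPKM over both libraries lay at a log2 ratio of -0.13 (mutant over control, with a pseudocount of 1), and at a plain ratio of 0.902, so each gene is read against that median.

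The pharyngeal endoderm lines the floor and pouches of the pharynx behind the mouth. Its floor gives rise to the thyroid bud at the base of the tongue, and its pouches to thymus and parathyroid. FOXA1 and FOXA2 are forkhead pioneer factors that open chromatin in endoderm. NKX2-1, PAX8, FOXE1 and HHEX together mark the thyroid bud, NKX2-3 and NKX2-5 are homeodomain proteins of the pharyngeal floor, PAX1 marks the pouches, and SOX2 marks foregut and oral epithelium. Several are used elsewhere as well: FOXE1 and SOX2 in oral epithelium, NKX2-5 in heart, PAX1 in the sclerotome of somites, and HHEX in endothelium, liver and yolk sac.

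The 10 genes differed in both directions. Pax1 was the only one at least 2-fold lower on the log2 scale with a pseudocount of 1, at -1.14, and 0 were at least 2-fold higher. Among the 12259 genes over the filter, 1.36% were at least 2-fold lower and 0.767% at least 2-fold higher. The shares were 0.583% and 0.345% of all 30723 genes, and 0.992% and 0.609% of the 8873 genes with a mean of at least 5 FPKM. By the plain ratio with no pseudocount, 2.72% of genes over the filter were at 0.5 or less and 1.33% at 2 or more. The median log2 ratio of the 10, which include members under the filter, was -0.05. It was -0.13 for all genes over the filter and 0 for all 30723 genes. Against the median gene over the filter, 5 lay below and 5 above. Nkx2-1 and Pax8 are among those above, at levels where the pseudocount holds any log2 ratio near 0. The counting interval lay below the median ratio of 0.902 for Pax1, Nkx2-5, Hhex and Foxe1. It lay above that ratio for Foxa2, Sox2 and Nkx2-3, and held it for Foxa1, Nkx2-1 and Pax8. Such intervals are common in these libraries: 29.3% of 12215 genes over the filter lay below and 32.2% above. Of the 7 members over the filter, 3 lay below and 3 above, and among the 5617 genes between 1 and 10 FPKM, where those 7 lie, 21.7% lay below and 31.8% above. Hhex missed the filter at a mean of 0.995 FPKM, while Pax1 and Foxa2 passed it at 1.29 and 1.30 FPKM, and Nkx2-1 and Pax8 lay far under it.

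**Figure D1:**
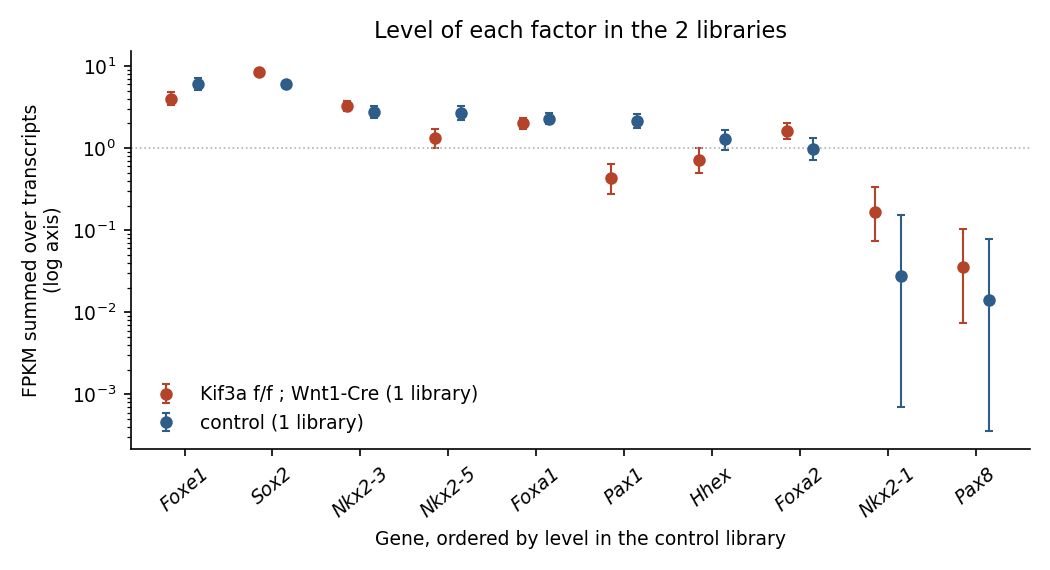
FPKM of each of the 10 genes (log axis) in the Kif3a f/f ; Wnt1-Cre library (red, left of each pair) and the control library (blue), with bars for the 95% counting interval and a dotted line at 1 FPKM. Sox2 and Foxe1 stand highest in both libraries, and Nkx2-1 and Pax8 lowest.

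In the mutant library Sox2 led at 8.52 FPKM (7.84 to 9.25), followed by Foxe1 at 4.01, Nkx2-3 at 3.26, Foxa1 at 1.999, Foxa2 at 1.61, Nkx2-5 at 1.32, Hhex at 0.714 and Pax1 at 0.433 FPKM. In the control library Foxe1 at 6.05 FPKM (5.15 to 7.06) and Sox2 at 6.002 FPKM (5.41 to 6.65) were level, followed by Nkx2-3 at 2.76, Nkx2-5 at 2.72, Foxa1 at 2.30, Pax1 at 2.15, Hhex at 1.28 and Foxa2 at 0.987 FPKM. Nkx2-1 and Pax8 closed the order in both. In the mutant library the intervals of neighbours in this order were apart only between Sox2 and Foxe1 and between Nkx2-3 and Foxa1. In the control they were apart between Sox2 and Nkx2-3, between Pax1 and Hhex, and between Foxa2 and Nkx2-1. In GRCm38 coordinates of the deposited loci, Pax1 lies at chr2:147364994-147393295 and Foxa2 at chr2:148042878-148046969, Pax8 at chr2:24420560-24475566, Sox2 at chr3:34650005-34652460 and Foxe1 at chr4:46344194-46345309. Nkx2-1 lies at chr12:56531935-56536908 and Foxa1 at chr12:57540632-57546121, Nkx2-5 at chr17:26838665-26841565, Hhex at chr19:37434841-37440731 and Nkx2-3 at chr19:43612325-43615892. They were measured as 13 transcripts, 1 for each of 7 genes and 2 each for Pax1, Foxa2 and Nkx2-1. FPKM is a level per length of transcript, so these orders compare genes within a library.

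Pax1 encodes a paired-domain factor of the pharyngeal pouches and the sclerotome. It stood at 0.433 FPKM (0.278 to 0.644) in the mutant library and 2.15 FPKM (1.78 to 2.58) in the control library, on about 24 and 117 fragments, and the intervals did not overlap. The ratio was 0.201 (0.124 to 0.314), a 4.97-fold lower level in the mutant. Only 127 of the 12259 genes over the filter had a log2 ratio as low or lower, which puts it at percentile 1.0. Most of it came from the transcript of 2638 bases, at 0.433 FPKM in the mutant and 2.004 FPKM in the control. The shorter one of 1457 bases stood at 0.149 FPKM in the control, on about 4.6 fragments, and at practically 0 in the mutant. Pax1 lay below the median gene under every setting tried, but it was no longer 2-fold lower with a pseudocount of 5 (-0.40) or with the trend over transcript length removed (-0.98). Scaling to a common FPKM total put it at -0.85, but that shifts all genes, and against the median gene it then lay at -1.24, compared with -1.01 as reported.

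Pax9, the closest relative of Pax1 and likewise a pouch factor, was close to level, at 4.29 FPKM in the mutant and 3.89 FPKM in the control. The ratio of Pax9 to Pax1 within a library does not depend on how the libraries are scaled. It was 9.90 in the mutant and 1.81 in the control, a 5.47-fold difference (3.37 to 9.15). Genes listed for sclerotome and somite, some of them also used in head mesoderm or mesenchyme, were low beside Pax1. Of 7 listed, 5 passed the filter, all 5 lay below the median gene, 1 was at least 2-fold lower, and their median log2 ratio was -0.91 against -0.13 for all genes. The summed level of the 7 was 5.95 FPKM in the mutant and 14.6 FPKM in the control. Meox1, a homeobox gene of somitic mesoderm, stood at 0.752 and 3.36 FPKM in mutant and control, the jaw patterning factor gene Nkx3-2 at 1.14 and 3.12, the T-box gene Tbx18 at 0.419 and 1.66, Meox2 at 1.08 and 2.59, and Pax3, the most abundant, at 2.41 and 3.58. Uncx, which marks sclerotome more closely, was at 0.0436 FPKM in the mutant and listed at 0 in the control. The ratio of Pax1 to Meox1 was 0.576 in the mutant and 0.641 in the control, and the quotient of 0.898 had an interval that holds 1 (0.497 to 1.60). Of the 5, however, Meox1 had the ratio of mutant to control closest to that of Pax1, at 0.224 against 0.201. Those of Tbx18, Nkx3-2, Meox2 and Pax3 were 0.253, 0.366, 0.417 and 0.673, so Pax1 did not move in step with the whole list. The part of cells expressing the listed genes in the Pax1 value was not tested. In bulk tissue, fewer cells of a type and less RNA per cell cannot be told apart.

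NKX2-5 and NKX2-3 are related homeodomain factors of the pharyngeal floor, and their genes parted. Nkx2-5 stood at 1.32 FPKM (0.997 to 1.71) in the mutant and 2.72 FPKM (2.22 to 3.30) in the control, on about 56 and 103 fragments, with no overlap of the intervals. Its ratio was 0.486 (0.344 to 0.679) and its log2 ratio -0.68, at percentile 3.7 of the genes over the filter. Nkx2-3 stood at 3.26 FPKM (2.81 to 3.76) in the mutant and 2.76 FPKM (2.33 to 3.25) in the control, and these intervals overlapped. Its ratio was 1.18 (0.945 to 1.47) and its log2 ratio 0.18. The level of Nkx2-3 relative to Nkx2-5 was 2.47 in the mutant and 1.02 in the control, a 2.43-fold difference (1.62 to 3.67). Where FPKM was rebuilt from the deposited coverage, the ratio of Nkx2-5 was 0.547 and that of Nkx2-3 was 1.32. Rebuilding shifts all genes, with the median gene at a log2 ratio of -0.01 in place of -0.13. Against the median gene, Nkx2-5 then lay at -0.57 and Nkx2-3 at 0.32, compared with -0.55 and 0.31 as reported.

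Markers of heart muscle, where NKX2-5 is best known, were close to absent. Of 11 heart genes 2 passed the filter, and both are also genes of the jaw: Hand1, a distal jaw factor, stood at 35.6 FPKM in the mutant and 26.6 FPKM in the control, and Mef2c at 2.05 and 3.05. The ventricular myosin light chain gene Myl2 was listed at 0 in both libraries. The contractile genes Myh6, Myh7, Myl7, Myl4 and Tnnt2 and the T-box genes Tbx5 and Tbx20 stood below 0.6 FPKM in both, and the atrial hormone gene Nppa at 0.128 FPKM in the mutant and at 0 in the control. Tbx1, a T-box gene of pharyngeal mesoderm and endoderm, was also lower, at 4.12 FPKM in the mutant and 7.43 FPKM in the control. Of the 8 listed arch and pouch genes over the filter, however, it was the only 1 below the median gene. The other 7 lay above, Isl1 among them at 9.62 FPKM in the mutant and 5.53 FPKM in the control. Nkx2-5 relative to Tbx1 was 0.320 in the mutant and 0.366 in the control, a quotient of 0.875 (0.590 to 1.29). The skeletal muscle regulator gene Myod1 was lower by more, at 0.636 FPKM in the mutant and 3.89 FPKM in the control, on about 30 and 184 fragments. Nkx2-5 relative to Myod1 was 2.08 in the mutant and 0.698 in the control, a quotient of 2.97 (1.75 to 5.11). The part of mesoderm or muscle cells in the Nkx2-5 value was not tested.

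**Figure D2:**
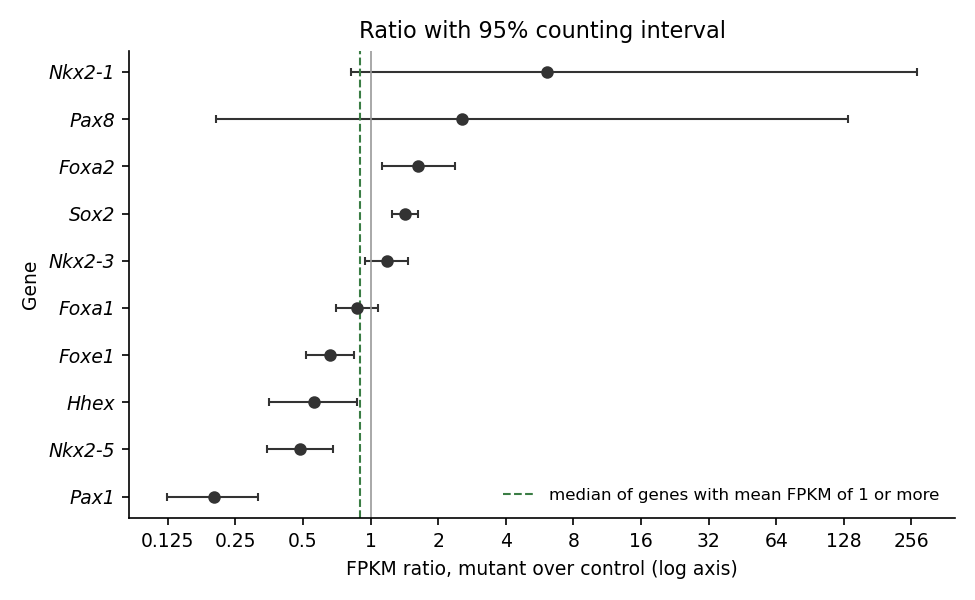
FPKM ratio of each gene, mutant over control, on a log axis with 95% counting intervals; the solid line marks equal levels and the dashed line the median ratio of 0.902. Pax1 is farthest to the left at 0.201, and the intervals of Nkx2-1 and Pax8 span most of the axis.

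Foxa1 and Foxa2, which can stand in for each other in endoderm, also differed. Foxa2 stood at 1.61 FPKM (1.28 to 2.0) in the mutant and 0.987 FPKM (0.725 to 1.31) in the control, on about 81 and 47 fragments, and these intervals overlapped slightly. Its ratio was 1.63 (1.12 to 2.39) and its log2 ratio 0.39, at percentile 94.1. All of it lay in the transcript of 2026 bases, since the one of 2127 bases with an upstream start was close to 0 in both libraries. Foxa1 stood at 1.999 FPKM (1.71 to 2.32) in the mutant and 2.30 FPKM (1.97 to 2.66) in the control. Its ratio was 0.871 (0.702 to 1.08), and its log2 ratio of -0.14 was next to that of the median gene. Foxa2 relative to Foxa1 was 0.805 in the mutant and 0.430 in the control, a 1.87-fold difference (1.21 to 2.91). Shh, a ligand gene that FOXA2 activates in endoderm and floor plate, stood at 9.39 FPKM in the mutant and 4.06 FPKM in the control. Foxa2 relative to Shh was 0.171 in the mutant and 0.243 in the control, a quotient of 0.706 (0.473 to 1.06).

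Sox2, an HMG-box factor of foregut and oral epithelium and of neural progenitors, was the most deeply covered member, with about 577 fragments in the mutant and 371 in the control. It stood at 8.52 FPKM (7.84 to 9.25) in the mutant and 6.002 FPKM (5.41 to 6.65) in the control, with no overlap of the intervals. The ratio was 1.42 (1.24 to 1.62) and the log2 ratio 0.44, at percentile 95.3. Sox2 lies within the noncoding gene Sox2ot on the same strand, and Sox2ot stood at only 0.0812 FPKM in the mutant and 0.0911 FPKM in the control. Neural and placodal genes were sparse: 2 of 11 passed the filter, the tubulin gene Tubb3 at 6.29 and 8.92 FPKM in mutant and control and Dcx at 2.12 and 1.58 FPKM. The neural progenitor genes Sox1 and Sox3 stood below 0.1 FPKM in both libraries. Sox21, which often accompanies Sox2, stood at 0.491 FPKM in the mutant and 0.104 FPKM in the control.

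Foxe1, a forkhead factor of thyroid and oral epithelium, went the other way from Sox2. It stood at 4.01 FPKM (3.31 to 4.80) in the mutant and 6.05 FPKM (5.15 to 7.06) in the control, on about 116 and 160 fragments, with no overlap of the intervals. Its ratio was 0.662 (0.517 to 0.846) and its log2 ratio -0.49, at percentile 8.9. Sox2 relative to Foxe1 was 2.13 in the mutant and 0.992 in the control, a 2.14-fold difference (1.62 to 2.84). Epithelial genes as a list were higher than the median gene beside both: all 16 passed the filter, 12 lay above the median gene and 4 below, 0 were at least 2-fold higher and 1, Krt15, at least 2-fold lower. Their median log2 ratio was 0.33, against -0.13 for all genes, and their summed level was 264 FPKM in the mutant and 232 FPKM in the control. The epithelial surface gene Epcam stood at 25.1 FPKM in the mutant and 24.0 FPKM in the control. Relative to Epcam, Sox2 was 0.339 in the mutant and 0.250 in the control, and Foxe1 was 0.160 in the mutant and 0.252 in the control, a quotient of 0.633 (0.488 to 0.82). The tight junction gene Cldn6, the most abundant of the list, stood at 39.6 and 31.0 FPKM in mutant and control, and the splicing factor gene Esrp2 had a log2 ratio of 0.56. The keratin genes of the list went both ways: Krt15, Krt5, Krt19 and Krt14 had log2 ratios of -1.13, -0.72, -0.54 and -0.24, while Krt8 and Krt18 had 0.41 and 0.48. The part of epithelial makeup in the values of Sox2 and Foxe1 was not tested.

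Nkx2-1 and Pax8, which with Foxe1 and Hhex define the thyroid bud, rested on no more than 8 fragments in either library. Nkx2-1 stood at 0.169 FPKM in the mutant and 0.0276 FPKM in the control, on about 8 fragments and 1 fragment, all in the transcript of 2265 bases. Its ratio of 6.13 had an interval from 0.821 to 272 and so held 1. Pax8 stood at 0.0358 FPKM in the mutant and 0.0140 FPKM in the control, on about 3 fragments and 1 fragment (ratio 2.55, 0.205 to 134). Of 13 thyroid differentiation genes 0 passed the filter and 9 stood below 0.1 FPKM in both libraries, with a summed level of 0.899 FPKM in the mutant and 1.52 FPKM in the control. Tg, Slc5a5 and Duox1 were below 0.11 FPKM in both, Iyd, Dio1 and Duoxa2 were listed at 0 in both, and the highest were Glis3 at 0.493 and 0.869 FPKM and Calca at 0.110 and 0.289 FPKM in mutant and control. By these markers a thyroid bud was not detectable in either library at this depth, so the values of Foxe1 and Hhex cannot be assigned to thyroid cells here.

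Hhex encodes a homeodomain factor of thyroid, liver and endothelium. It stood at 0.714 FPKM (0.494 to 0.997) in the mutant and 1.28 FPKM (0.960 to 1.67) in the control, on about 34 and 54 fragments, and the intervals overlapped slightly. The ratio was 0.559 (0.353 to 0.874) and the log2 ratio -0.41. Each of the 8 endothelial genes passed the filter with a log2 ratio under that of the median gene. At least 2-fold lower were 0 of them, their median log2 ratio was -0.59, and their summed level was 45.9 FPKM in the mutant and 73.8 FPKM in the control. Sox18 had a log2 ratio of -0.89, Cldn5 of -0.78, Robo4 of -0.66 and Esam of -0.64, and the endothelial cadherin gene Cdh5, the most abundant, stood at 9.24 and 13.8 FPKM in mutant and control. Hhex relative to Cdh5 was 0.0773 in the mutant and 0.0925 in the control, a quotient of 0.836 whose interval holds 1 (0.523 to 1.32). Erythroid genes were lower still, with 6 of 7 at least 2-fold lower, the other also under the median gene, and a median of -1.42. Their summed level was 5291 FPKM in the mutant and 20290 FPKM in the control, led by the globin genes Hbb-y (-1.92) and Hba-x (-1.997), with Slc4a1 at -1.60 and Alas2 at -1.42. The part of blood and vessel content in the Hhex value was not tested.

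Endoderm of other organs was near absent: of 12 genes only Sox17, which vessels also express, passed the filter, at 1.31 FPKM in the mutant and 1.40 FPKM in the control. Cdx2 and Pdx1 were listed at 0 in both libraries. Afp, a product of yolk sac and liver, was listed at 0 in the mutant and stood at 1.89 FPKM in the control on about 101 fragments, and Ttr was listed at 0 in the mutant and stood at 0.261 FPKM in the control. The liver gene Alb stood at 0.0155 FPKM in the mutant and 0.0355 FPKM in the control. Hhex is used in yolk sac and liver too, and the part of such tissue in its control value was not tested.

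**Figure D3:**
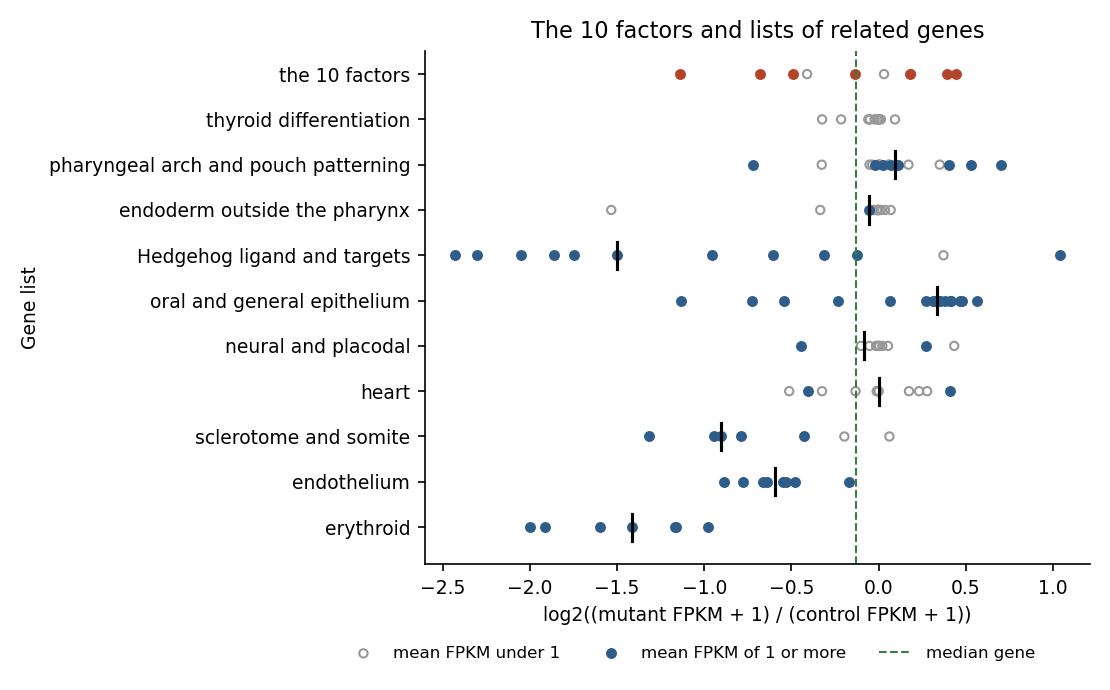
Log2 ratio (mutant over control, pseudocount of 1) of the 10 factors in red and of lists of related genes in blue, with open circles for genes under a mean of 1 FPKM, black ticks for the median of each blue list, and a dashed line at the median gene. The 10 factors spread on both sides of that line, while the endothelial, erythroid, and sclerotome and somite genes over the filter lie to its left.

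Genes that pattern the pharyngeal arches and pouches were mostly above the median gene. Of 18 listed, 8 passed the filter, 7 above and 1 below the median gene, with 0 past 2-fold in either direction and a median log2 ratio of 0.09. Isl1, a LIM homeobox gene of pharyngeal mesoderm, endoderm and ganglia, stood at 9.62 FPKM in the mutant and 5.53 FPKM in the control, Gata3 at 7.54 and 4.91, and the ligand gene Fgf8 at 17.4 and 12.9, while Tbx1, given above, was the lower one. The pouch organ genes Gcm2 and Pth, of the parathyroid, were listed at 0 in both libraries, and Foxn1, of the thymus, stood at 0.142 FPKM in the mutant and 0.0964 FPKM in the control. Of 12 Hedgehog ligand and target genes, 11 passed the filter, 6 at least 2-fold lower and 1, Shh, at least 2-fold higher, with a median of -1.50. The forkhead targets Foxf1, Foxf2, Foxd1 and Foxd2 had log2 ratios of -2.43, -2.30, -2.05 and -1.86, and Ptch1, the most abundant, had -0.31. Foxc1, the forkhead gene of the list with the smallest difference, had -0.61 beside -0.49 for Foxe1. The other forkhead genes of the list lay between -2.43 and -1.50, farther from Foxe1. Foxc1 and Foxe1 were also less alike with the length trend removed, at -0.54 and -0.23.

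**Figure D4:**
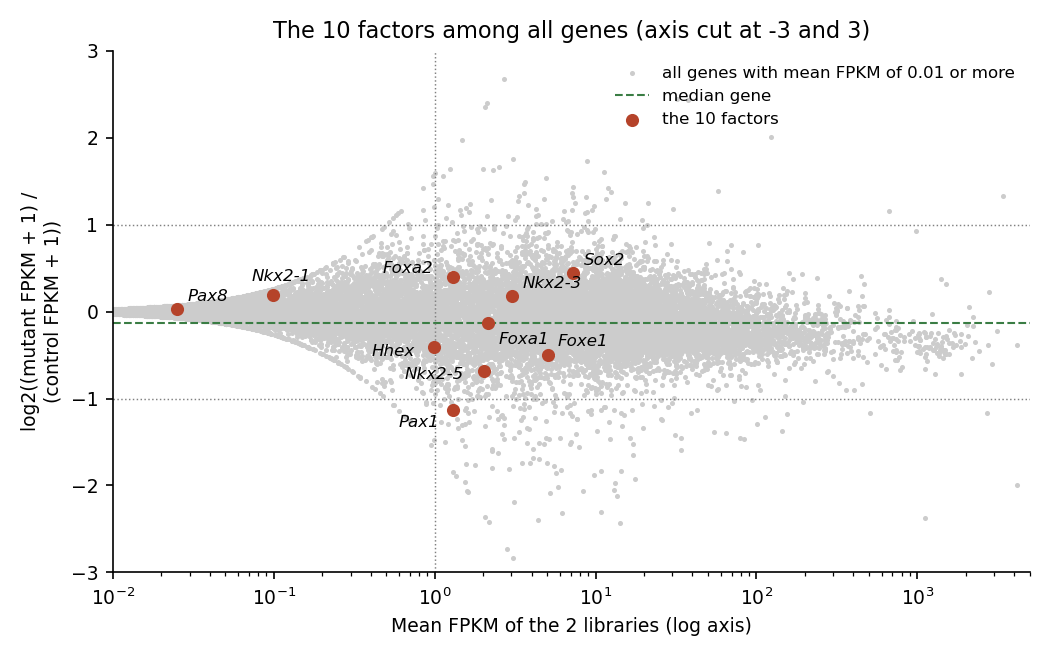
Log2 ratio against mean FPKM for all genes with a mean of at least 0.01 FPKM (grey) and the 10 factors (red), with dotted lines at a 2-fold difference and at 1 FPKM and a dashed line at the median gene. Of the 10, Pax1 alone lies past the 2-fold line, and Nkx2-1 and Pax8 lie where the pseudocount holds every ratio near 0.

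The upstream sequences of the members with the clearest differences in each direction, and of Foxa1 as the one closest to the median gene, are given below so that their composition can be compared. RefSeq promoter entries of GRCm38.p6 matched 9 of the 10 members, all but Foxe1. Each run is the 250 bases before the annotated start site, 5′ to 3′ on the strand of the gene, taken at the start site nearest to that of the most abundant transcript. Capitals mark every match, on either strand, of the GC box core GGGCGG, the CCAAT box core CCAAT and the forkhead core GTAAACA.
Pax1 (chr2:147364744-147364993, plus strand): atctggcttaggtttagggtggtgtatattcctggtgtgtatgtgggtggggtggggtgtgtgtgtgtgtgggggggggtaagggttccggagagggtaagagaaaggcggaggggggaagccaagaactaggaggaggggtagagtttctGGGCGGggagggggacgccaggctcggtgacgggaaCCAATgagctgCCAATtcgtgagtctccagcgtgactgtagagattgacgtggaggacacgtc
Nkx2-5 (chr17:26841566-26841815, minus strand): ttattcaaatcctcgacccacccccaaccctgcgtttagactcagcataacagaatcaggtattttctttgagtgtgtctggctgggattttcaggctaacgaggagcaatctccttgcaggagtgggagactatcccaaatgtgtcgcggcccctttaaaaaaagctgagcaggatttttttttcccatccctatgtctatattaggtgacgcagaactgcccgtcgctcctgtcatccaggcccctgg
Foxa2 (chr2:148045949-148046198, minus strand): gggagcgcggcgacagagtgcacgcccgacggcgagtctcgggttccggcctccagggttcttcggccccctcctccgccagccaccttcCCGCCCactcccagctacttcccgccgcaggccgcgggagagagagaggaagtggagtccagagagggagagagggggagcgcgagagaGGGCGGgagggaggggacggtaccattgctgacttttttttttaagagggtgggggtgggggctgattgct
Sox2 (chr3:34649745-34649994, plus strand): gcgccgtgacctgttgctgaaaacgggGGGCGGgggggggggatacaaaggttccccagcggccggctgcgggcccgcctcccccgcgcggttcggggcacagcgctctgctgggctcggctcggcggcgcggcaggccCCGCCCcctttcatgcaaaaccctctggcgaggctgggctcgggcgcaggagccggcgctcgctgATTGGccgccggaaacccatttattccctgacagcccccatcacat
Foxa1 (chr12:57546112-57546361, minus strand): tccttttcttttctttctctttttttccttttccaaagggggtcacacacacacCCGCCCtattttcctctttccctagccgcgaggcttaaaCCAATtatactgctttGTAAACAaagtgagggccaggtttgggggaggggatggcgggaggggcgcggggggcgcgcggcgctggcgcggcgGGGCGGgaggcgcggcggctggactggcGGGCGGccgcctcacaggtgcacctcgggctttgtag
The start site of the Pax1 and Nkx2-5 entries is that of the deposited transcript, while it lies 43 bases from it for Foxa2 and 10 bases for Sox2 and Foxa1. For Nkx2-1, not printed, it lies 1802 bases away, at the start of the transcript that was close to 0 in both libraries. The counts over 9 members below thus include a window that does not adjoin the start of the measured Nkx2-1 transcript. The Nkx2-5 sequence is the one with no match and has a GC content of 49.2%, against 58.8% for Pax1, 62.0% for Foxa1, 67.2% for Foxa2, 72.0% for Sox2 and a median of 52.4% over 32851 promoters of all genes. The GC box core was found in 8 of the 9 members and in 32.7% of all promoters. The CCAAT core was found in 6 of 9 members, 2 times each in Pax1 and Nkx2-3, and in 33.8% of all promoters. The forkhead core was found in Foxa1 alone, from 141 to 135 bases before its start, and in 3.17% of all promoters. The GLI consensus GACCACCCA (0.225% of all promoters), the NK2 core CACTTGA (2.68%), the SOX core CATTGTT (3.29%) and the TATA box TATAAA (12.4%), searched on both strands, had no match in these windows of the 9 members.

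**Figure D5:**
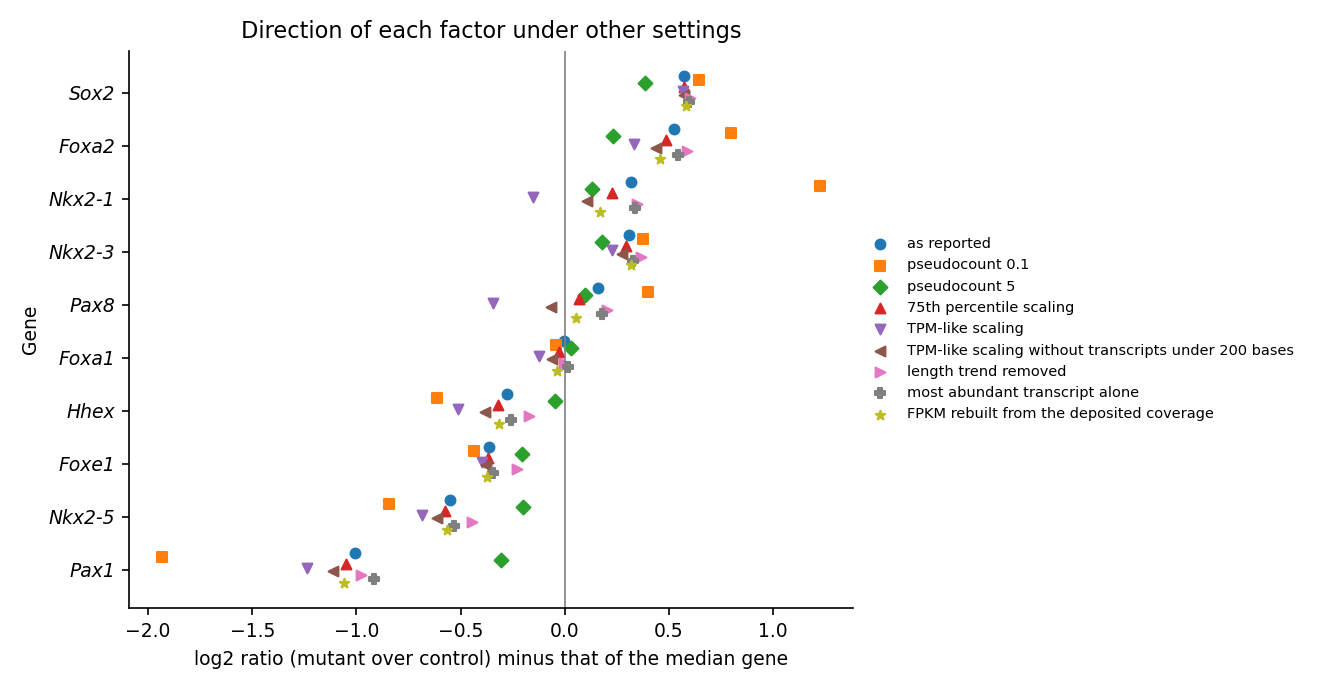
Log2 ratio of each gene minus that of the median gene (x axis) under the reported setting and those that change it, 1 symbol per setting; centring on the median gene and the epithelium list leave it as reported and are not drawn. Sox2, Foxa2 and Nkx2-3 stay to the right of 0 and Hhex, Foxe1, Nkx2-5 and Pax1 to the left under each, while Foxa1, Nkx2-1 and Pax8 fall on both sides.

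Against the median gene, the direction held for 7 of the 10 members under all 10 other settings. Sox2, Foxa2 and Nkx2-3 lay above it and Pax1, Nkx2-5, Foxe1 and Hhex below it each time. Nkx2-1 and Pax8 fell below it when each library was scaled to a common FPKM total, which moves the median of all genes to 0.39. Pax8 did so also when transcripts under 200 bases were left out of that total. Foxa1 lay within 0.13 of it throughout. Of the 10 settings, centring on the median gene and the epithelium list shift all genes alike, so they could not change these directions. The most abundant transcript alone left the value itself as it was for the 7 members with 1 transcript.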

How the data were processed

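RNA of the mandibular prominence was sequenced from 1 pool of 10 mutant and 1 pool of 10 control embryos, prepared with Illumina chemistry per the labels. Per the file headers, the authors deposited for each of 59120 transcripts a length, a coverage signal (mean depth over the transcript) and an FPKM value with a status; Cufflinks is named in the naming of the deposited tables. No source used here gives the aligner, tool versions or strandedness. Per the submitters' processing notes the build is mm9, but 72.1% of 45475 transcripts with a shared symbol, and 10 of the 13 transcripts of the members, had an end identical to GENCODE M21, so coordinates are given on GRCm38, 1-based.

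Per library, 65 lines with displaced columns were left out. FPKM was summed by gene symbol and compared as log2((mutant + 1)/(control + 1)). A gene was called at 2-fold; the filter was a mean of 1 FPKM. Fragments were approximated as coverage times length divided by the yield of 1 fragment (153.3 bases in the mutant, 156 in the control: the median of values from 80 to 220 bases among genes with 1 transcript of over 1500 bases). Ratios carry exact Clopper-Pearson 95% intervals, levels exact Poisson intervals and quotients of ratios exact conditional intervals, all checked on simulated data. The length trend was a running median over 401 genes. Python 3.11.15 and SciPy 1.17.1 were used. The members and lists were chosen with earlier results of these data known. Named genes are the members, Kif3a, the most abundant gene and up to 4 with the largest difference of each list; Pax9, Shh, Foxc1, Myod1, Krt8, Krt14, Krt18, Sox21, Sox2ot, Epcam, Uncx, Ttr, Alb and single marker genes were named after their values were seen. Some genes that this rule or the lists would name are not reported here. With 2 libraries no likeness of pattern to other genes was computed.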

Additional observations from a re-analysis of the deposited data

How the results depend on the processing

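No paired analysis was possible because each group has 1 library, and for the same reason no library could be left out. The tables hold no interval limits of the authors, so that alternative was not run. Each of 100 log2 values of the members under other settings was compared with the reported value. For 90 the shift was no larger than the distance from the plain ratio to its counting limit on that side, on the log2 scale. This compares sizes of shift and does not place a value within its interval. The shift was larger for 10, and 0 changed the sign of a called value. Pax1 was the only called member, so that last count covers Pax1 alone. Uncalled values changed sign under some setting for Foxa1, Nkx2-1, Nkx2-3 and Pax8. The shifts of Nkx2-1 and Pax8 all stayed within that distance, but their intervals are too wide for this to show stability. The number of members at least 2-fold lower, 1 as reported, was 0 with a pseudocount of 5, with TPM-like scaling to a common total, with the length trend removed and with a mean of 5 FPKM as filter. It was 2, Pax1 and Nkx2-5, relative to the epithelium list and with no pseudocount. The number at least 2-fold higher, 0 as reported, was 1 with a pseudocount of 0.1, which was Nkx2-1, and 2 with no pseudocount, which were Nkx2-1 and Pax8. Pax1 ranged from -2.08 with a pseudocount of 0.1 to -0.40 with a pseudocount of 5. TPM-like scaling and the epithelium list shift the whole table, with the median gene at 0.39 and -0.47, so calls and signs that change there say nothing about single members. Against the median gene Pax1 lay at -1.24 with TPM-like scaling, and Pax1 and Nkx2-5 kept their reported -1.01 and -0.55 relative to the epithelium list. The median of the members ranged from -0.39 to 0.14. The settings relative to the epithelium list, with no pseudocount and from rebuilt coverage were chosen after seeing the data. Depth limits Nkx2-1 and Pax8, with 1 fragment each in the control.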

Other observations

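The members Pax1, Foxa2, Nkx2-1 and Foxa1 lie in homeobox, paired box and forkhead neighbourhoods shared with each other. On chromosome 2, Pax1 (147364994 to 147393295, plus strand) and Foxa2 (148042878 to 148046969, minus strand) are nearest coding neighbours 650 kb apart, and they differed in opposite directions. Pax1 had a log2 ratio of -1.14 and Foxa2 of 0.39, while Nkx2-2 on the other side of Pax1 was listed at 0 in the mutant and at 0.0373 FPKM in the control. On chromosome 12, Nkx2-1 (56531935 to 56536908) and Foxa1 (57540632 to 57546121) bound a stretch of 1010 kb with Nkx2-9 and Pax9 between them. Nkx2-9, an NK2 gene next to Nkx2-1, stood at 0.712 FPKM in the mutant and 0.343 FPKM in the control on about 26 and 11 fragments. Mipol1, the neighbour of Foxa1, stood at 3.83 FPKM in the mutant and 3.35 FPKM in the control, and Slc25a21 between Pax9 and Mipol1 at 0.477 FPKM in the mutant and 1.05 FPKM in the control. Hemgn, an erythroid gene 48.7 kb from Foxe1 on chromosome 4, stood at 6.10 FPKM in the mutant and 18.6 FPKM in the control, and Xpa on the other side of Foxe1 at 8.40 FPKM in the mutant and 11.4 FPKM in the control. Around Nkx2-5, Bnip1 at 46.1 kb stood at 15.4 FPKM in the mutant and 20.1 FPKM in the control, and Kifc5b at 75.5 kb at 8.54 FPKM in the mutant and 8.38 FPKM in the control. The other nearest coding neighbours had log2 ratios between -0.31 (Dnajc19, near Sox2) and 0.15 (Kif11, near Hhex).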
